A study of Mus musculus with 6 samples.

Results

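Ecrg4, the gene for the secreted peptide precursor augurin, was measured in whole adrenal glands of 6 female mice aged 2 months, with 1 array per animal. The 3 control mice had the genotype Mst1flox/flox;Mst2flox/flox, and the 3 mutant mice carried the same floxed alleles together with Nr5a1-Cre. Mst1 and Mst2, also called Stk4 and Stk3, encode the kinases at the head of the Hippo pathway, and Nr5a1 is the regulator of steroid-producing cells, so the Cre acts in the adrenal cortex but not in every cell of the gland. The controls had no Cre, so an effect of the Cre itself and of the deletion cannot be told apart. The comparison asked how transcripts of the gland differ when both kinases are to be lost from cortical cells.

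Ecrg4 was found by its gene symbol in the platform's annotation, which gave 1 probe set, TC0100000329.mm.2, of 22206 probe sets that are not controls and of 19572 that have a gene symbol. It was singled out for its difference between mutant and control glands. In a limma fit over all probe sets it was 1 of 4 lower and 12 higher probe sets past an adjusted p of 0.05 (Benjamini-Hochberg; 20 higher and 12 lower with the arrays set to a common median). The 4 lower ones are 0.018% and the 12 higher ones 0.054% of all probe sets. Its adjusted p of 0.0223 in that limma fit is how it was chosen, and its level and its difference are given here as a description without a test.

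Augurin is made as a precursor with a signal peptide, is secreted or held at the cell surface, and can be cut into shorter peptides by proprotein convertases and thrombin. The gene was named for its loss in oesophageal cancer, where its promoter is often methylated, and has been studied for growth arrest and senescence. It was also picked out in a genome search for unknown peptide hormones, is expressed in endocrine tissues among others, and augurin given into the rat hypothalamus has been reported to raise corticotropin.

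Ecrg4 lies on mouse chromosome 1. The 250 bases before its annotated start in RefSeq, chr1:43730352-43730601 on the plus strand of GRCm38.p6, are shown because TEAD factors, the DNA-binding partners of the YAP and TAZ coactivators that MST kinases restrain, recognise the letters GGAATG. Capitals mark the match to these letters, here on the reverse strand.
Ecrg4 promoter: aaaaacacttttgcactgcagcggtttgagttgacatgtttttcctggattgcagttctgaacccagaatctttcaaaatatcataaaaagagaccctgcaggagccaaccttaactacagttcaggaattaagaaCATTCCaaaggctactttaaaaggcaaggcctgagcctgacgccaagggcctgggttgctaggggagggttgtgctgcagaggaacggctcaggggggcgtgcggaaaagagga
This window held 1 match to GGAATG or its reverse complement CATTCC, with 108 bases between the match and the annotated start. Of 32851 promoter windows of the same length, 12.6% held at least 1 such match on either strand. The letters AAGGTCA, a core of the NR5A1 site, and their reverse complement TGACCTT had 0 matches before Ecrg4 and were in 4.08% of all windows. The window had 5 CpG dinucleotides, where the median of all windows was 6. A match is a description of the letters and not evidence of binding.

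Ecrg4 was lower in every mutant gland than in every control gland, with the measured signal falling to 31.2% of the control level. The control animals measured 13.98, 13.97 and 13.99 log2 units, and the mutants 12.46, 12.47 and 11.97. The controls lay within 0.019 log2 units of each other, and mutant 3 was the lowest of the 6 animals. Group means were 13.98 ± 0.0094 in controls and 12.30 ± 0.29 in mutants (SD, n = 3 each). The difference of -1.68 log2 units is 3.20-fold lower. Over the 9 pairs of a control and a mutant, the fold by which Ecrg4 was lower ran from 2.83 to 4.05. The gap of 1.502 log2 units between the lowest control and the highest mutant was wider than the whole range within either group. Groups did not overlap, in the lower direction, for 8.36% of all probe sets. In whole glands, fewer cells that express Ecrg4 and less Ecrg4 RNA per cell cannot be told apart.

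**Figure D1:**
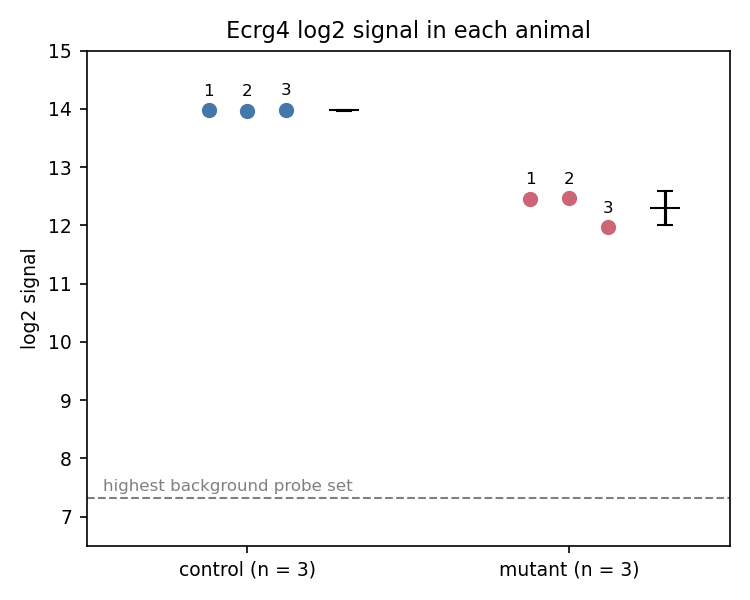
Ecrg4 log2 signal of each animal (points, numbered by replicate), with the group mean and SD (bar, n = 3 each); the dashed line is the highest signal of any background probe set, 7.32. The controls sit together at 13.97 to 13.99, and the mutants lie between 11.97 and 12.47, far above the background line.

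Ecrg4 was bright in both groups. Its signal exceeded the highest of the 23 background probe sets on the same array by 6.67 to 6.87 log2 units in controls and by 4.76 to 5.25 in mutants. Among the 19572 named probe sets, Ecrg4 ranked 864, 859 and 854 from the top in the controls. In the mutants its rank was 1914, 1953 and 2461. As percentiles, where 100 is the brightest, its mean rank was 95.6 ± 0.026 in controls and 89.2 ± 1.6 in mutants (SD, n = 3 each). Ecrg4 thus stayed in the upper part of the signal range in every mutant. Probes differ in how strongly they hybridise, so these ranks order signals on the array and not amounts of RNA.

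**Figure D2:**
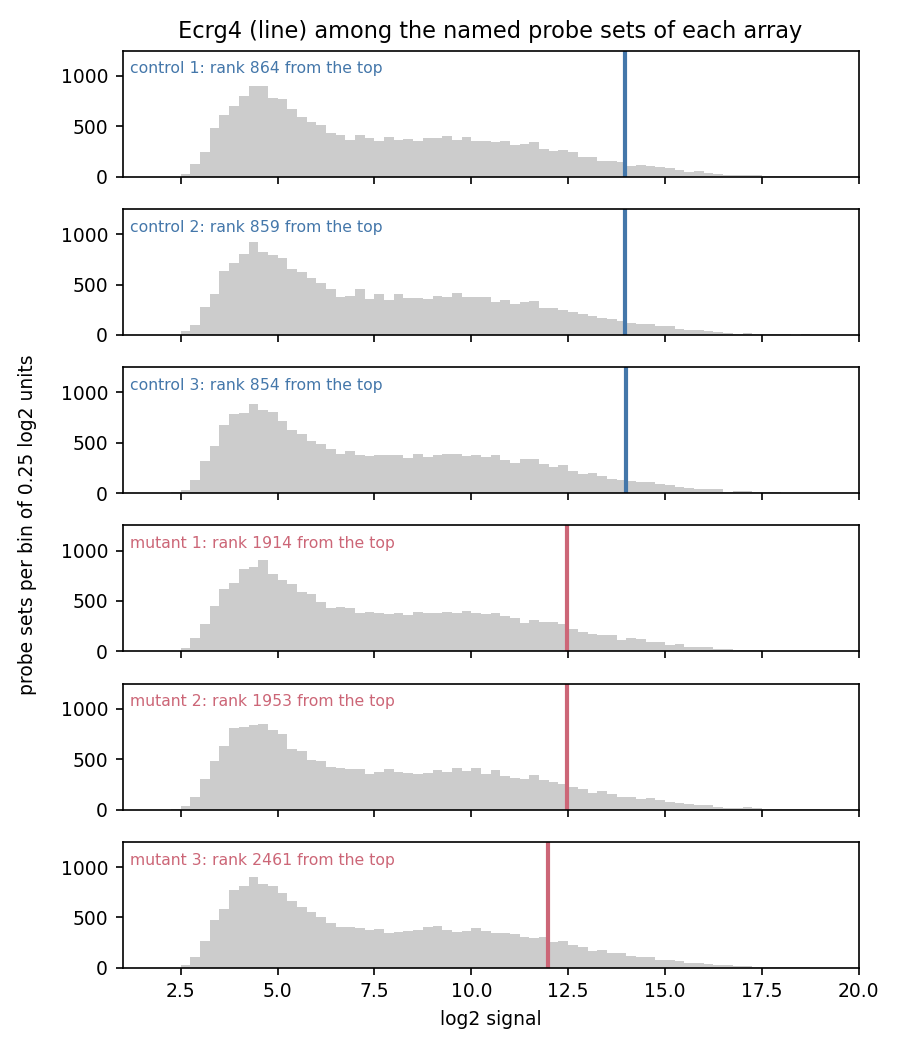
Histogram of log2 signals of the 19572 named probe sets on each array (grey, bins of 0.25 log2 units), with Ecrg4 as a vertical line. The line stands at rank 854 to 864 from the top in controls and at 1914 to 2461 in mutants.

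By the size of its fall, Ecrg4 was at rank 7 among all named probe sets and rank 3 among the 4 called lower ones. None (0) of the 797 probe sets whose mean level lay within 0.5 log2 units of Ecrg4 had a lower value of mutant minus control. The median over all probe sets was -0.01 log2 units. The choice of the gene fixes these places, and nothing is read from them.

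The spread of Ecrg4 between animals differed between the groups in these samples. The SD of 0.0094 among the 3 controls was undercut by 46 of all other probe sets, or 0.207%. Of 590 probe sets within 0.5 log2 units of its control mean, 2 had a smaller control SD, and their median SD was 0.11. Among the mutants the SD of 0.29 was larger than that of 85.1% of 1111 probe sets of similar level, whose median SD was 0.16. The SD of Ecrg4 in mutants was 30.6 times that in controls, where the median ratio over all probe sets was 1.03. This ratio rests on the small control SD and, among the mutants, on a single animal. Mutants 1 and 2 differed by 0.0056 log2 units, and mutant 3 lay 0.49 below them. Over both groups the residual SD of Ecrg4 was 0.202, against a median of 0.231 for all probe sets. Among 797 probe sets of similar mean level the median was 0.147, and 72.3% of them had a smaller residual SD. Without mutant 3 the residual SD of Ecrg4 was 0.0080. With 3 animals a group, an SD is itself imprecise, and the within-group SD also entered the fit that chose the gene.

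**Figure D3:**
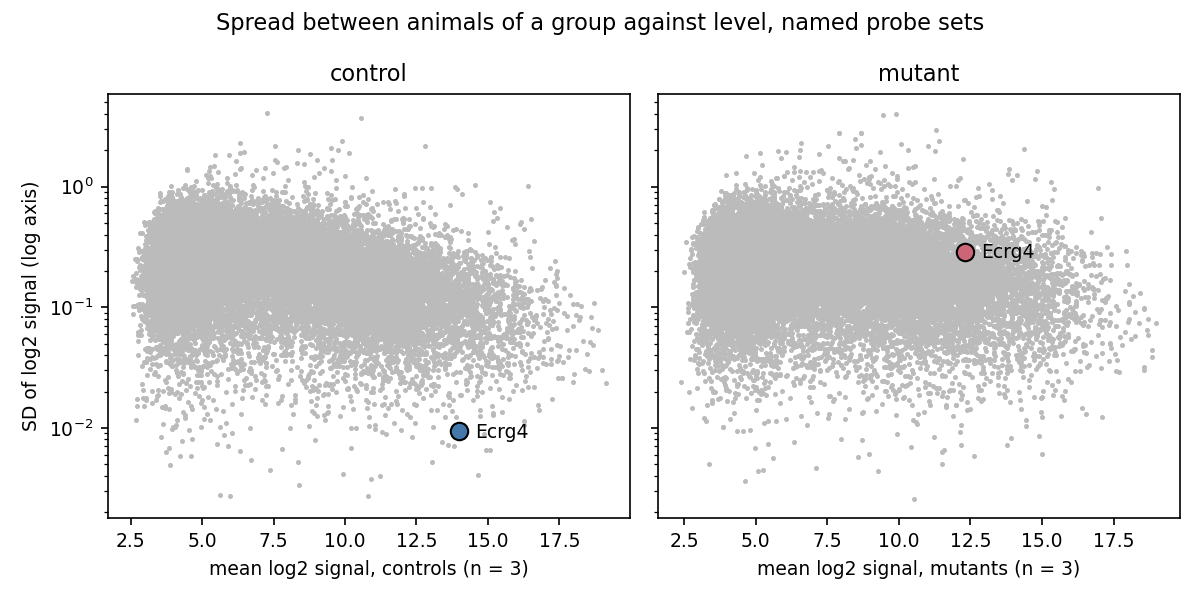
SD between the 3 animals of a group (log axis) against the group's mean log2 signal, for every named probe set (grey) and Ecrg4 (large point), in controls and in mutants. Ecrg4 lies near the lower edge in controls (SD 0.0094) and in the upper part of the cloud at its level in mutants (SD 0.29).

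The rule that named the genes nearest to Ecrg4 took the root mean square distance between profiles over the 6 animals, each profile centred on its own mean. The 8 nearest of 19571 other named probe sets had distances from 0.19 to 0.31 log2 units, where the median over all was 0.88 and Ecrg4 itself varied by 0.86 about its mean. The distance uses the difference that chose Ecrg4, so these genes are lower in mutants by choice. Nearest was Nr0b1, which encodes DAX1, a nuclear receptor that opposes NR5A1. Its control signals were 11.03, 11.08 and 10.92, and those of the mutants were 9.90, 9.82 and 9.32, with mutant 3 again lowest. Next came Chka, the choline kinase that begins phosphatidylcholine synthesis, with 12.47, 12.22 and 12.41 in controls and 10.96, 10.85 and 10.88 in mutants. The mutants of Chka lay closer together than those of Ecrg4.

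Cib4, a relative of calcium- and integrin-binding proteins, had 7.61, 7.60 and 7.76 in controls and 6.68, 6.42 and 6.11 in mutants. Its mutant signals were below the highest background probe set. Slc6a15, a transporter of neutral amino acids, had 8.76, 9.10 and 8.89 in controls and 6.95, 6.83 and 6.53 in mutants, where its signals too were below the highest background probe set. Herc6, a ubiquitin ligase of the interferon response, differed by -1.23, and its mutant 3, at 9.47, lay apart from 10.10 and 10.40 in the other mutants. The secreted phospholipases Pla2g2d (-1.41) and Pla2g2f (-1.78) and Sphkap, an anchor protein for protein kinase A (-1.33), complete the 8. The mutant signals of Sphkap, 6.47, 5.86 and 6.03, were at background level as well. When single animals were left out, or arrays rescaled, Nr0b1 and Chka were among the 8 nearest in 8 of 8 such settings, and the other genes in 3 to 6. With Pearson's correlation as the measure 3 of the 8 were kept, Nr0b1, Slc6a15 and Cib4, and Chka was not. Of the 7 of these genes with a promoter window, 1, Cib4, held GGAATG on either strand.

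**Figure D4:**
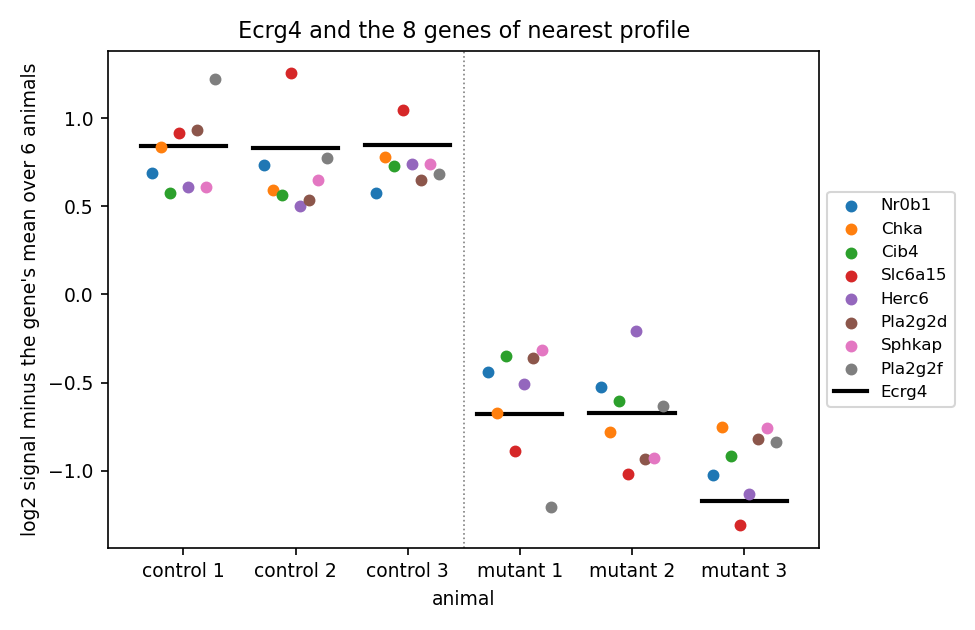
Log2 signal minus each gene's own mean over the 6 animals, for Ecrg4 (black bars) and the 8 genes of nearest profile (points). All 8 are above their mean in the controls and below it in the mutants, as the measure requires, and Slc6a15 and Herc6 come nearest to Ecrg4 in mutant 3.

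Genes for proteins described to bind augurin were measured in the same glands. These are the scavenger receptors Olr1, Scarf1, Cd36 and Stab1, and the Toll-like receptor complex of Tlr4, Cd14 and Ly96. In limma's test over all probe sets, where 0.0721% were called in either direction, 0 of these 7 passed in either direction. An unadjusted p under 0.05 was reached by 1 of the 7, beside 10.4% of all probe sets. That gene was Tlr4, the endotoxin receptor, with 7.86, 8.06 and 8.01 in controls and 8.34, 8.35 and 8.62 in mutants (difference 0.46, SE 0.15, limma adjusted p = 0.36). Its groups did not overlap, as was so for 16.4% of all probe sets. Cd14, its coreceptor, differed by 0.45 (SE 0.25), whereas Ly96, their bright partner MD-2, differed by -0.07 (SE 0.15). The scavenger receptors differed by -0.09 (Scarf1, SE 0.17), -0.16 (Cd36, SE 0.27), -0.22 (Stab1, SE 0.29) and 0.16 (Olr1, SE 0.22). Signals of Olr1 were within the range of background probe sets in all 6 animals. Both group means of Stab1, 7.11 in controls and 6.89 in mutants, were within it too, though its control 2, at 7.77, was above. The median difference of the 7 genes was -0.07, beside -0.01 for all probe sets.

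Genes that process peptide precursors were also measured, since augurin is made from one. Of 12 measured members 0 passed limma's test in either direction, and 1 had an unadjusted p under 0.05 (10.4% of all probe sets), with a median difference of -0.13. Furin, the convertase of the secretory pathway of most cells, had 12.08, 11.73 and 11.60 in controls and 11.68, 11.61 and 11.61 in mutants (difference -0.17, SE 0.17). Pcsk5, a related convertase and bright in these glands, differed by 0.10 (SE 0.18), and Pcsk7 by -0.21 (SE 0.18). Pcsk1, the convertase of neuroendocrine granules, differed by -0.38 (SE 0.40). Its inhibitor Pcsk1n differed by -0.68 (SE 0.30, limma adjusted p = 0.484) and the granule chaperone Scg5 by -0.53 (SE 0.33). Among these 3 granule genes, control 2 had the highest signal of the 6 animals, as it did in the chromaffin cell markers given below. Cpe, the carboxypeptidase that trims cut peptides, differed by -0.18 (SE 0.18) and the related Cpd by 0.26 (SE 0.14). Pam, which amidates peptide ends, was the member of smallest p, with 14.80, 14.85 and 14.71 in controls and 15.23, 15.30 and 15.12 in mutants (difference 0.43, SE 0.14, limma adjusted p = 0.351). F2, the thrombin precursor made in liver, Pcsk4 and Pcsk6 were within the background range in both groups.

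The corticotropin axis was represented by 11 genes, of which 0 passed limma's test and 3 had an unadjusted p under 0.05 (10.4% of all probe sets), Crhr2 and Avpr1a at background level among them. The median difference was -0.09. Mc2r, the corticotropin receptor, had 17.57, 17.62 and 17.60 in controls and 17.55, 17.67 and 17.73 in mutants, a difference of 0.05 (SE 0.14). Mrap, the partner that brings this receptor to the surface, differed by -0.34 (SE 0.15, limma adjusted p = 0.481). Signals at background level in both groups were seen for 9 of the 11 genes, among them Pomc, Crh, Avp and their receptors Crhr1, Crhr2, Avpr1a and Avpr1b. Crhr2 differed by 0.62 (SE 0.14, limma adjusted p = 0.191) at signals of 4.90 to 5.70, so this difference was measured at a level not told apart from background.

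**Figure D5:**
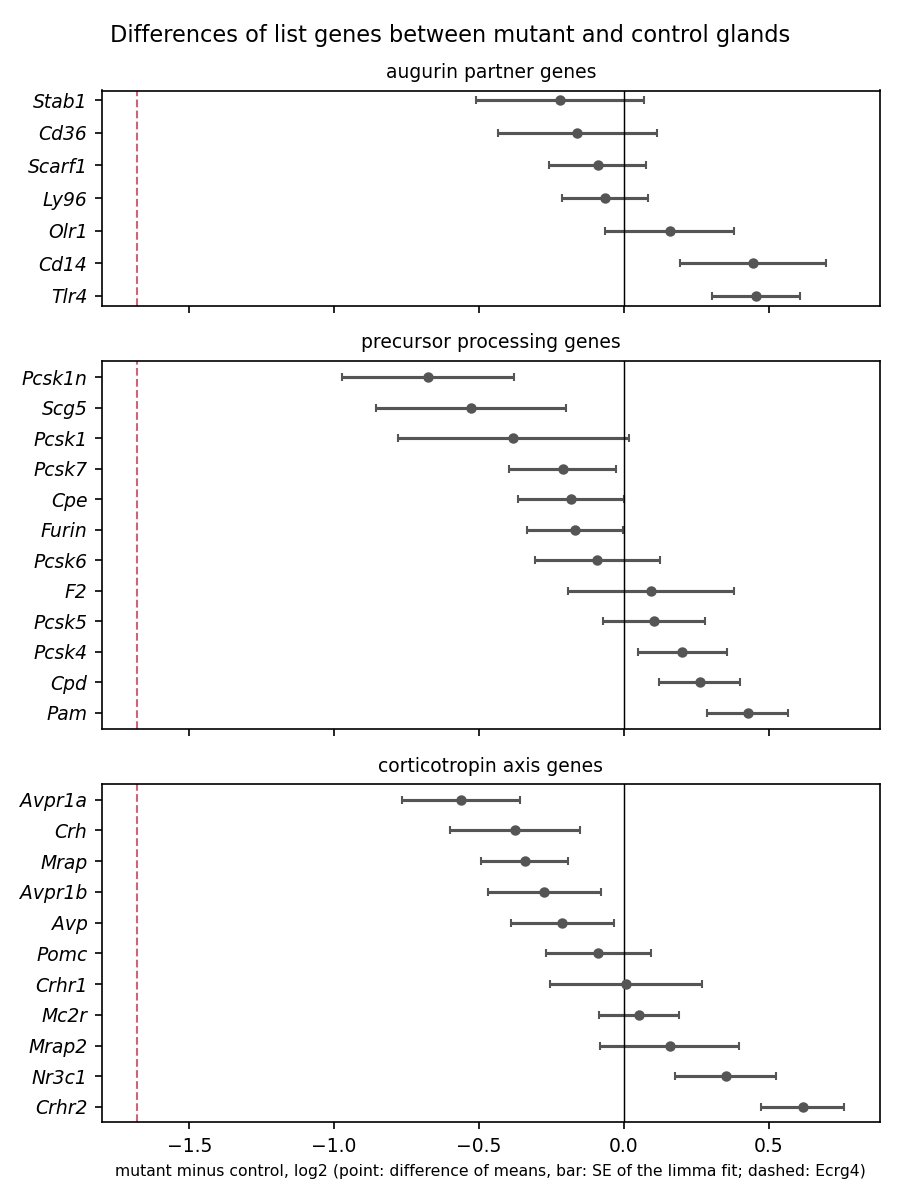
Difference of mutant minus control (points, log2) with the SE of the limma fit (bars) for the measured augurin partner, precursor processing and corticotropin axis genes. The dashed line marks Ecrg4 at -1.68, and the listed genes range from -0.68 (Pcsk1n) to 0.62 (Crhr2).

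Other genes for secreted peptide precursors were split evenly between higher and lower. Of 72 measured genes, 37 were higher and 35 lower, 0 passed limma's test in either direction, 5 had an unadjusted p under 0.05 (10.4% of all probe sets), and 59 were at background level in both groups. Their median difference was 0.01. Agt, the precursor of angiotensin, had 9.04, 9.97 and 10.26 in controls and 10.84, 11.52 and 11.13 in mutants (difference 1.41, SE 0.32, limma adjusted p = 0.184). Cck, at background level in both groups, differed by 0.86 (SE 0.22), Stc1, a regulator of calcium and phosphate, by 0.67 (SE 0.17) and Stc2, also at background level, by -0.43 (SE 0.17). The genes of highest mean signal were those of chromaffin granules: Chga differed by -0.34 (SE 0.26), Scg2 by -0.05 (SE 0.24), Chgb by -0.32 (SE 0.29) and Npy by -0.61 (SE 0.35).

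Cell cycle genes were measured because Ecrg4 has been studied for growth arrest. Of 11 arrest genes 0 passed limma's test and 2 had an unadjusted p under 0.05 (10.4% of all probe sets), with 6 higher and a median difference of 0.17. Cdkn1b, the p27 inhibitor of cyclin-dependent kinases, had 10.15, 10.10 and 9.95 in controls and 9.60, 9.73 and 9.34 in mutants (difference -0.51, SE 0.16, limma adjusted p = 0.335). The others of smallest p were Rbl1 (0.64, SE 0.25), Cdkn1c (0.70, SE 0.32) and Lmnb1 (0.54, SE 0.29, at background level). Of 14 proliferation genes 0 passed limma's test and 5 had an unadjusted p under 0.05 (10.4% of all probe sets), with 11 higher and a median difference of 0.32. Mki67, which marks cycling cells, had 9.55, 9.58 and 10.21 in controls and 11.43, 10.50 and 10.11 in mutants, with groups that overlapped (difference 0.90, SE 0.34, limma adjusted p = 0.41). Ccnb2 (0.70, SE 0.23), Aurkb (0.47, SE 0.18) and Cdk1 (0.55, SE 0.23, at background level), all genes of mitosis, had limma adjusted p of 0.36, 0.425 and 0.468. Mutant 3, the lowest animal for Ecrg4, was also the lowest mutant for Mki67, Ccnb2, Aurkb and Cdk1. The mean of the proliferation list was 8.89, 8.84 and 8.49 in mutants 1, 2 and 3. Mutant 3 was not the lowest mutant for every gene of that list, and a relation to Ecrg4 was not tested.

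Neighbours of Ecrg4 on its chromosome were compared as well. On the side before Ecrg4, Nck2, an adaptor protein, differed by -0.17 (SE 0.19), Fhl2, a LIM-domain cofactor, by 0.83 (SE 0.20, limma adjusted p = 0.2) and AI597479 by 0.27 (SE 0.21). On the side after it, Uxs1, which makes UDP-xylose, differed by -0.10 (SE 0.18), the peptidase Tpp2 by 0.10 (SE 0.19) and Mettl21c by -0.14 (SE 0.15). None (0) of these 6 passed limma's test, where 0.0721% of all probe sets were called. Signals of Nck2 and Mettl21c were at background level in both groups. Fhl2 alone had groups that did not overlap, with higher signals in the mutants. Groups did not overlap for 16.4% of all probe sets, and in the higher direction for 8%.

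Markers of cell types were measured beside Ecrg4, as means of log2 signals over each list. In limma's test, where 0.0721% of all probe sets were called, 0 markers in any list passed. An unadjusted p under 0.05 (10.4% of all probe sets) was reached by 5 of 9 capsule and 5 of 9 zona glomerulosa markers. Counts were 5 of 8 for endothelial, 3 of 7 for fibroblast and 4 of 8 for smooth muscle markers. Macrophage markers had 2 of 8, and Sertoli, granulosa and Leydig cell markers 5 of 7. Zona fasciculata had 1 of 3, steroid-producing cells 1 of 8 and the other lists 0. Markers of steroid-producing cells were bright, 17.98 to 18.04 in controls and 17.79 to 18.01 in mutants. Of the cortical zones, 8 of 9 zona glomerulosa markers were lower, and their mean was 13.38, 13.25 and 13.48 in the control animals and 12.91, 13.25 and 12.61 in the mutant animals. For Ecrg4 and for this list mutant 3 was the lowest animal, as it was for the Schwann cell and corticotropin axis means. It was also the lowest mutant for capsule, fibroblast, endothelial, adipocyte, macrophage, and Sertoli, granulosa and Leydig cell means. It was the highest mutant for zona fasciculata, X-zone, steroid-producing cell, chromaffin cell and kidney means. A relation of these orders to Ecrg4 was not tested. Vsnl1, a calcium sensor among the zona glomerulosa markers, had 15.42, 15.19 and 15.52 in controls and 14.36, 14.76 and 13.68 in mutants (difference -1.11, SE 0.26, limma adjusted p = 0.202). Cyp11b2, aldosterone synthase, differed by -0.24 (SE 0.19). The only higher zona glomerulosa marker, the hedgehog ligand Shh, had 10.05, 10.03 and 10.17 in controls and 10.81, 11.19 and 10.38 in mutants (difference 0.71, SE 0.21, limma adjusted p = 0.308). Zona fasciculata means were 17.70 to 17.79 and 17.50 to 17.72, and X-zone means 15.15 to 15.27 and 15.03 to 15.33, in controls and mutants.

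Chromaffin cell markers, from medullary cells, in which Nr5a1 is not normally active, were lower in 9 of 9 cases. Their means were 13.85, 14.70 and 13.50 in the control animals and 13.70, 13.66 and 13.74 in the mutant animals. Control 2 stood highest in this list. Means were 8.46 to 8.90 in controls and 8.91 to 9.22 in mutants for capsule, 10.10 to 10.64 and 10.51 to 11.42 for fibroblast, 12.16 to 12.41 and 12.59 to 12.72 for endothelial, and 8.98 to 9.34 and 9.44 to 9.87 for smooth muscle markers. Macrophage means were 9.09 to 9.21 and 9.23 to 9.68, and means of Sertoli, granulosa and Leydig cell markers 5.999 to 6.08 and 6.36 to 6.74, with 5 of the 7 at background level. Adipocyte means varied most, from 8.06 to 10.84 in controls and from 9.19 to 12.18 in mutants. Lymphocyte means were 5.57 to 5.63 and 5.60 to 5.78, kidney means 4.69 to 4.83 and 4.68 to 4.82, and Schwann cell means 4.43 to 4.54 and 4.27 to 4.55, and 5 of 7, 7 of 8 and 4 of 4 of their markers lay within the background range. With the adipocyte mean as a covariate the Ecrg4 difference was -1.74, and with the intron control signal, a sign of RNA quality, it was -1.67. The part of the cell types and of RNA quality in the Ecrg4 difference was not tested.

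Over the whole series, array medians lay between 6.76 and 6.83 log2 units. Stk4 had 8.32, 8.66 and 8.94 in controls and 8.14, 8.36 and 8.46 in mutants (difference -0.32, SE 0.19, limma adjusted p = 0.623), while Stk3 is not analysed here. The sources used here do not place the Stk4 probes against the deleted part, so Stk4 checks no label. The Ecrg4 difference ranged from -1.76 to -1.51 over 12 alternative settings. The adjusted p by which it was chosen depended on single animals: it ran from 0.0449 to 0.133 in limma fits that each left out 1 animal, and was under 0.05 in 1 of these 6 fits, the fit without mutant 3. It was also over 0.05 with the adipocyte covariate (limma adjusted p = 0.0638), with the intron covariate (0.0556) and with the replicate block (0.0819).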

How the data were processed

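Total RNA of 6 frozen whole glands was labelled as sense-strand cDNA and hybridised to Affymetrix whole-transcript arrays, per the labels' protocols. The authors deposited 1 log2 signal per probe set and animal, where the log2 scale was judged from the range of the values. Transcriptome Analysis Console 4.0 is named in the submitters' processing notes. How background was corrected and arrays normalized is not given in the sources used; a normalization that equalises arrays can mask a change common to most genes.

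From these values 6640 control probe sets were left out, and mutant minus control was fitted with limma 3.58.1 (lmFit and eBayes, R 4.3.3) over 22206 probe sets without covariates or further normalization, two-sided, with Benjamini-Hochberg adjustment. SEs use limma's moderated variance. Where a gene had several probe sets, the brightest on average stood for it. Signals from 2.53 to 7.32, the range of the 23 background probe sets, were taken as not told apart from background. The upper end is above the median of every array (6.76 to 6.83), so most probe sets lie below it. The number of animals limits precision, and the labels name the animals separately.

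Ecrg4 and all gene lists were chosen with earlier results of these data known. The genes named were Ecrg4, the 8 of nearest profile, members of the 3 short lists, the 4 of smallest p in the 3 longer ones, the 4 brightest peptide precursors, 3 measured chromosome neighbours on either side, and Stk4. Vsnl1, Cyp11b2 and Shh were named after their values were seen. The fit was tested on simulated data. Of 100 probe sets changed by 1 log2 unit 39 were called, and of 100 changed by 2 log2 units 87, with 8 false calls. A gene that did not pass limma's test may thus still differ. The simulated noise was normal and independent between probe sets, and more probe sets passed there than the 16 in the measured data. These shares may therefore be higher than those in the measured data. Gene positions and the promoter come from RefSeq tables of GRCm38.p6, and no build is named for the array. Alternatives were other normalizations, covariates, array weights, a replicate block, filters, variance models and each animal left out.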

Additional observations from a re-analysis of the deposited data

How the results depend on the processing

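The Ecrg4 difference kept its direction in 12 of 12 alternatives, between -1.76 and -1.51 log2 units. The counts of called genes stayed at 0 in each of the 6 gene lists under 15 alternatives. The number of probe sets called, 16, was 38 with quantile normalization, 32 with a common median, 48 with array weights, 92 with only probe sets above the median level, 175 with trend and robust variances, 8 with the intron covariate, 2 with the adipocyte covariate and 1 to 15 with 1 animal left out. Labels give both groups the replicate numbers 1 to 3, and with the replicate number as a block 1 probe set was called and the Ecrg4 difference was -1.68. Deviations of same-numbered animals correlated at -0.09, 0.08 and -0.07 over probe sets, and 2 of 6 animals correlated best with their own number. With 3 animals a group these correlations cannot decide whether the numbers pair animals. The within-group SD of Ecrg4 ran from 0.0080 to 0.234 with 1 animal left out, the lowest without mutant 3. Of the 8 nearest genes 2 to 8 were kept with 1 animal left out, and 3 with Pearson's correlation. The mean percentile in controls was 95.4 among all probe sets that are not controls. The causes of these shifts were not tested.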
